A study of Mus musculus with 6 samples.

Results

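The glucuronosyltransferase and glutathione transferase genes of mouse liver were compared between animals that lack ACSS2 in hepatocytes and their floxed controls, all of them fed ethanol. Members were the genes of the table whose symbol starts with Ugt1, Ugt2 or Ugt3, with Gst followed by a class letter (a, m, p, t, k, o or z) and a number, or with Mgst and a number. No expression level entered the choice, and 43 of the 16135 genes were members, of which 19 were Ugt, 21 Gst and 3 Mgst genes. RNA came from whole liver of 2 groups of 3 libraries. The ACSS2-HKO group carried a hepatocyte-specific deletion of Acss2, the acetyl-CoA synthetase that turns acetate, a product of ethanol breakdown, into acetyl-CoA outside mitochondria. The ACSS2-flox group carried the floxed gene. Both groups were kept for 10 days on the Lieber-Decarli liquid diet with ethanol and then given 1 ethanol binge, so no library shows liver without ethanol. The driver of the deletion, the sex and age of the mice and whether each library came from its own mouse are not stated in the labels. The p-values therefore describe the spread among these libraries, and some of that spread may be technical.

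Both enzyme families make foreign and endogenous compounds more water-soluble so that bile or urine can carry them away. UDP-glucuronosyltransferases (UGTs) sit in the endoplasmic reticulum and join glucuronic acid, taken from UDP-glucuronate, to bilirubin, steroids, bile acids, phenols and drugs, and to a small extent to ethanol itself. Glutathione transferases (GSTs) join glutathione to electrophiles such as epoxides and the lipid aldehydes that form when ethanol oxidation damages membranes. Most are cytosolic, in the alpha, mu, pi, theta, omega and zeta classes, while kappa is found in mitochondria and peroxisomes and the MGST proteins are membrane-bound. Hepatocytes express many of these genes at high levels, and several are textbook targets of the sensors NRF2, CAR, PXR and AHR.

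Values are FPKM, fragments scaled to gene length and to the library total. The values implied 35362997, 35904126 and 39474527 fragments for ACSS2-HKO replicates 1, 2 and 3, against 33717125, 37199061 and 38321306 for ACSS2-flox replicates 1, 2 and 3. Acss2 read 50.6, 38.4 and 45.7 FPKM in ACSS2-HKO, against 87.8, 61.5 and 58.5 FPKM in ACSS2-flox, so each ACSS2-HKO library was below each ACSS2-flox library. A value over the whole gene includes exons outside the deleted part and cells other than hepatocytes. ACSS2-HKO replicate 3 and ACSS2-flox replicate 1 stood apart from the other libraries of their own groups. The mean chi-square statistic per gene between ACSS2-HKO libraries was 376 and 346 for the pairs with replicate 3 and 124 for the remaining pair. Between ACSS2-flox libraries it was 352 and 381 for the pairs with replicate 1 and 79.8 for the remaining pair. Counts of members, and the fold changes most affected, are also given without these libraries. All 9 hepatocyte markers passed the filter on low values, and their summed level was 48572 to 57283 FPKM in ACSS2-HKO, against 57252 to 87957 FPKM in ACSS2-flox. Most of each sum was Alb, with 42064, 40501 and 38187 FPKM in ACSS2-HKO, against 59759, 46728 and 43383 FPKM in ACSS2-flox. By log2 fold change, 2 of the 9 markers were higher in ACSS2-HKO and 7 were lower. The 10 Kupffer cell and macrophage markers summed to 602, 559 and 1335 FPKM in ACSS2-HKO, against 327, 465 and 401 FPKM in ACSS2-flox. The 10 neutrophil markers summed to 37.9, 53.6 and 353 FPKM in ACSS2-HKO, against 17.1, 13.1 and 7.67 FPKM in ACSS2-flox. Only 3 of these 10 passed the filter, and S100a8 and S100a9 held 138 and 177 of the 353 FPKM. The macrophage and neutrophil sums were both highest in ACSS2-HKO replicate 3, and the other ACSS2-HKO libraries also lay above every ACSS2-flox library. In whole liver, fewer cells of a type and less RNA per cell cannot be told apart, and the part of these differences in the results below was not tested.

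The classes did not share 1 direction, and no member passed the adjusted threshold. Limma was run on log2(FPKM + 1). A filter at a mean of 1 FPKM over the 6 libraries left 9818 genes, 37 of the 43 members among them (15 Ugt, 20 Gst and 2 Mgst). At an adjusted p under 0.05, 0% of all genes and 0 of the 37 members were called in either direction. Limma on the recovered fragments (voom) also called 0 genes after adjustment, while its unadjusted threshold passed 344 higher and 298 lower genes. At an unadjusted p under 0.05, 4 members were higher in ACSS2-HKO, where 6.09% of all genes were, and 4 were lower, where 1.5% of all genes were. The 4 higher members were GST genes (Gstm3, Gstm4, Gstp1 and Gstp2), and the 4 lower ones were UGT genes (Ugt1a5, Ugt2a3, Ugt2b37 and Ugt3a1). The groups did not overlap for 2 members that were higher in ACSS2-HKO, against a background of 12.5%, and for 6 that were lower, against a background of 2.94%. The lower ones were Ugt1a5, Ugt2b37, Ugt3a1, Gsta3, Gstk1 and Gstt1, and the higher ones Gstp1 and Gstp2. Without ACSS2-HKO replicate 3 the unadjusted threshold left Gstm1, Gstm3, Gstm4 and Gstp2 higher, against 2.87% of all genes, and Ugt2b37 lower, against 0.754%. Without ACSS2-flox replicate 1 it left Gstp2 higher, against 5.11% of all genes, and Ugt1a5, Ugt2b37 and Ugt3a1 lower, against 4.69%. With both of these libraries out, Gsta1, Gstm2, Gstm3, Gstm4 and Gstp2 were higher, against 5.37% of all genes, and Ugt1a5, Ugt2b37 and Ugt3a1 lower, against 3.78%. Without ACSS2-HKO replicate 1, Gstm3 and Gstp2 were higher, against 5.02% of all genes, and Gstt2, Ugt2b37 and Ugt3a1 lower, against 1.44%. With ACSS2-flox replicate 2 left out, Gstm3, Gstp2 and Ugt2b35 were higher, against 5.45% of all genes, and Gstp3, Gstt1 and Ugt2b37 lower, against 1.65%. With ACSS2-HKO replicate 2 left out, Gstm3 and Gstp2 were higher, against 5.9%. Lower there were Gstp3, Ugt1a5, Ugt2a3, Ugt2b5, Ugt2b37 and Ugt3a1, against 1.52%. With ACSS2-flox replicate 3 left out, Gsta1 and Gstm1 joined the 4 higher members, against 5.64%, and the same 4 were lower, against 1.48%. Gstp2 and Ugt2b37 passed that threshold each time a single library was left out. Those fits share most of their libraries and keep the filter over all 6, so they are not independent of each other. Ugt2b37 passed the filter only through its ACSS2-flox values. At a filter of 5 FPKM neither gene was tested.

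Fold changes are log2 differences, ACSS2-HKO minus ACSS2-flox, followed by their standard error. A positive fold change was seen in 15 of the 37 members, against 66% of all tested genes. By class it was 5 of 15 Ugt, 10 of 20 Gst and 0 of 2 Mgst members. The median was -0.21 for Ugt, 0.04 for Gst and -0.10 for Mgst, beside 0.10 for all tested genes. Relative to that overall median the class medians were -0.30, -0.06 and -0.20. The overall median was -0.01 after median-ratio scaling, where the Gst median was -0.09 and the Ugt median -0.34, so the sign for the Gst class depended on the scaling. As deposited, the unadjusted threshold gave 598 higher and 147 lower genes in all, against 371 higher and 302 lower after median-ratio scaling. For the members that split was 4 and 4 in both. Within the families the medians ranged more widely, 0.87 in the 3 Gstp genes, 0.22 in the 7 Gstm genes and 0.22 in the 5 tested Ugt1 genes, against -0.29 in the 8 Ugt2 genes, -0.38 in the 3 Gstt genes and -0.49 in the 2 Ugt3 genes.

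**Figure D1:**
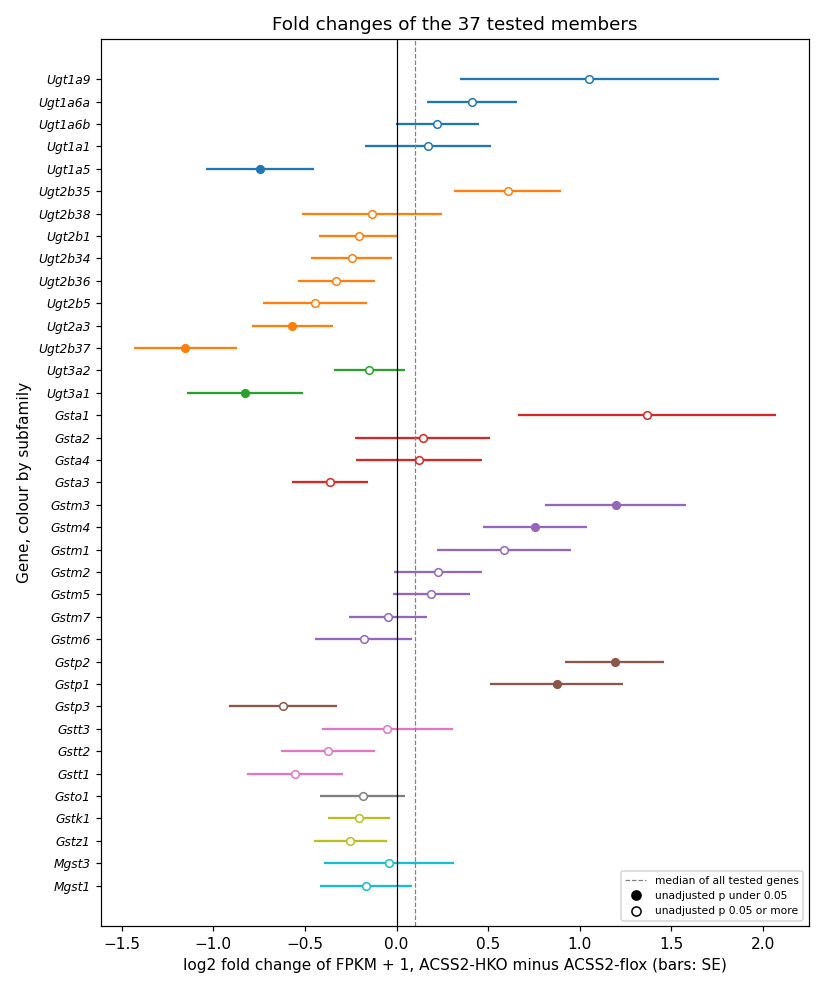
The log2 fold change of log2(FPKM + 1), ACSS2-HKO minus ACSS2-flox, is plotted on the horizontal axis for each of the 37 tested members, grouped and coloured by subfamily, with bars for 1 standard error. Filled points are the 8 members at an unadjusted p under 0.05 and the dashed line is the median of all tested genes (0.10), with Gstp2, Gstm3, Gstp1 and Gstm4 to its right and Ugt2b37, Ugt3a1, Ugt1a5 and Ugt2a3 to its left.

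As summed levels, the whole set read 9768, 9431 and 6572 FPKM in ACSS2-HKO, against 8518, 7246 and 8891 FPKM in ACSS2-flox. The means of 8591 ± 1756 and 8219 ± 863 FPKM (SD, n = 3 each) differed by less than the spread within either group. The Ugt sum was 1292, 1545 and 1046 FPKM in ACSS2-HKO, against 1469, 1660 and 1398 FPKM in ACSS2-flox. The Gst sum was 6257, 5663 and 3931 FPKM in ACSS2-HKO, against 4330, 3556 and 5497 FPKM in ACSS2-flox. In both sums the groups overlapped, and ACSS2-HKO replicate 3 was the lowest ACSS2-HKO library. That library was the lowest of all 6 for 17 of the 37 members (45.9%), against 17.2% of all tested genes. ACSS2-flox replicate 1 was the highest for 13 members (35.1%), against 15.7% of all genes, and the lowest for 13 others (35.1%), against 52.9% of all genes. The pericentral hepatocyte markers, the cells beside the central vein where many of these enzymes are most abundant, summed to 5714, 4302 and 2507 FPKM in ACSS2-HKO, against 6940, 5298 and 5694 FPKM in ACSS2-flox. The largest part of that sum was Cyp2e1, the ethanol-oxidising cytochrome, with 3455, 1989 and 1055 FPKM in ACSS2-HKO, against 5074, 2737 and 3020 FPKM in ACSS2-flox. The list as a whole had 5 positive and 4 negative fold changes and a median of 0.003. Its part in the members' values was not tested.

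**Figure D2:**
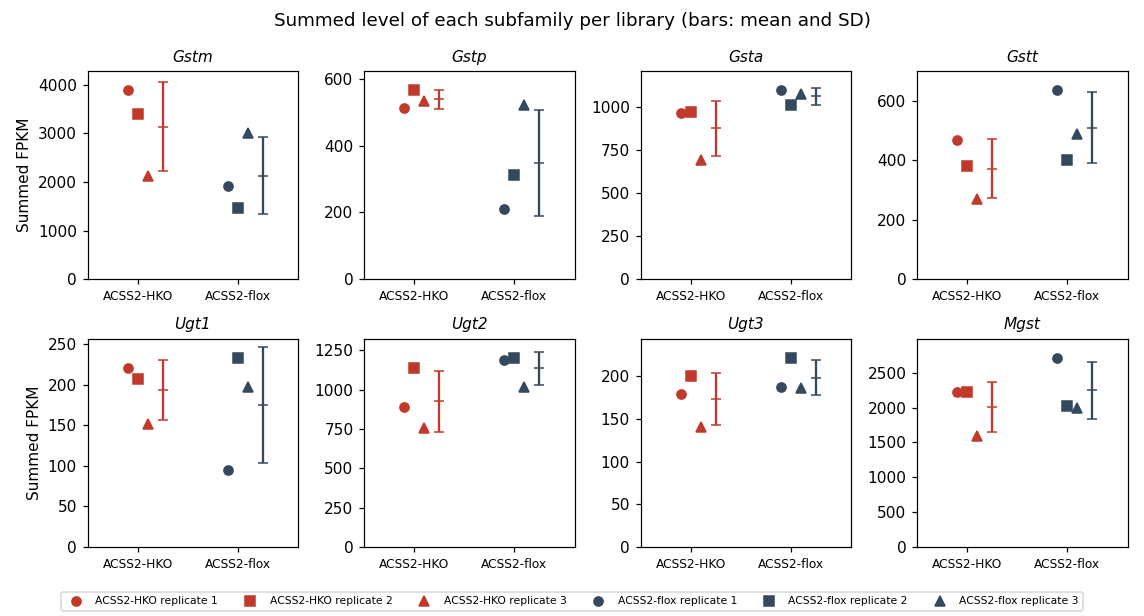
Summed FPKM of each subfamily is plotted on the vertical axis for each library, with ACSS2-HKO at the left and ACSS2-flox at the right of each panel, and with bars for the mean and SD of 3 libraries. The Gstm and Ugt1 sums overlap between the groups, while the Gsta sum of each ACSS2-HKO library (693 to 972 FPKM) lies below each ACSS2-flox library (1011 to 1102 FPKM). Gsta3 alone makes up 80% to 87% of the Gsta sum in ACSS2-HKO and 83% to 92% in ACSS2-flox. The other 3 Gsta genes have positive fold changes, so the sum does not describe the class as a whole.

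Among the UGTs, the Ugt1 genes share 1 locus (chromosome 1, 88055411 to 88220002, all in the mm10 build). Each has its own first exon and all share the remaining exons, so fragments from the shared exons cannot be ascribed to 1 gene. Of the 75-base words of their transcripts, 58.7% to 100% also occur in another gene's transcripts. How the authors divided such fragments is not stated in the labels. Ugt1a1, which conjugates bilirubin, read 151, 122 and 82.1 FPKM in ACSS2-HKO, against 61.5, 142 and 121 FPKM in ACSS2-flox. The groups overlapped, with the lowest value in ACSS2-flox replicate 1 (0.17 ± 0.34, and -0.19 without that library). Ugt1a9, a phenol-conjugating form in human, read 39.5, 50.5 and 42.6 FPKM in ACSS2-HKO, against 4.46, 42.7 and 41.7 FPKM in ACSS2-flox. Its fold change of 1.05 ± 0.71 rested on that low ACSS2-flox library, which held 484 fragments of the gene, and was 0.06 without it. Ugt1a5 had the opposite sign, with 9.50, 17.7 and 12.9 FPKM in ACSS2-HKO, against 18.4, 33.2 and 18.4 FPKM in ACSS2-flox. All its ACSS2-HKO values lay below all its ACSS2-flox values, a 1.74-fold lower mean (13.4 ± 4.12 and 23.4 ± 8.52 FPKM, SD, n = 3 each). The fold change was -0.75 ± 0.29 with a limma p of 0.0332 and an adjusted p of 0.637. An exact permutation test over libraries gave p = 0.1, which 3 libraries against 3 cannot go below, here and for each other member without overlap. The fold change of Ugt1a5 was -0.47 without ACSS2-flox replicate 2, its highest library, and the unadjusted threshold was also missed without ACSS2-HKO replicate 1 or replicate 3. Ugt1a6a and Ugt1a6b, which conjugate small planar phenols, had means of 5.57 to 9.48 FPKM and fold changes of 0.41 ± 0.25 and 0.22 ± 0.23, with overlapping groups.

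The Ugt2 genes lie together on chromosome 5 (86889770 to 87424203) and conjugate steroids, bile acids and drugs. Of the 8, 7 had a negative fold change and the 8th, Ugt2b35, named after its value was seen, a positive one (0.61 ± 0.29, and 0.26 without ACSS2-flox replicate 1). Ugt2b5, among the most abundant, read 218, 359.6 and 174 FPKM in ACSS2-HKO, against 367, 345 and 273 FPKM in ACSS2-flox. Ugt2b36 read 257, 296 and 200.4 FPKM in ACSS2-HKO, against 349.8, 298 and 290.3 FPKM in ACSS2-flox. In both genes 1 ACSS2-HKO library, replicate 2, lay inside the ACSS2-flox range (-0.45 ± 0.28 for Ugt2b5 and -0.33 ± 0.21 for Ugt2b36). Ugt2b34 read 202, 186 and 131 FPKM in ACSS2-HKO, against 188, 236 and 187 FPKM in ACSS2-flox, and overlapped too (-0.25 ± 0.22). Ugt2a3 (chromosome 5, 87324972 to 87337195), a bile acid conjugating form in human, read 79.6, 102 and 78.2 FPKM in ACSS2-HKO, against 155, 137 and 98.8 FPKM in ACSS2-flox. Its means were 86.7 ± 13.6 and 130.4 ± 28.8 FPKM (SD, n = 3 each), and ACSS2-HKO replicate 2 was just above ACSS2-flox replicate 3. Limma gave -0.57 ± 0.22, with a p of 0.0325 and an adjusted p of 0.637. Leaving out ACSS2-flox replicate 1 gave -0.43, leaving out ACSS2-HKO replicate 3 gave -0.50 and leaving out both gave -0.36, past the unadjusted threshold in none of these.

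Ugt2b37 had the lowest fold change of all members. This scarce transcript (chromosome 5, 87240492 to 87254788) read 0.752, 1.48 and 0.701 FPKM in ACSS2-HKO, against 3.36, 2.03 and 5.17 FPKM in ACSS2-flox. These values rest on 50, 100 and 52 fragments in ACSS2-HKO, against 213, 142 and 372 in ACSS2-flox. The groups did not overlap, and the mean was 3.60-fold lower (0.979 ± 0.437 and 3.52 ± 1.57 FPKM, SD, n = 3 each). On the log2(FPKM + 1) scale, which shrinks changes of low genes, the value was -1.15 ± 0.28 with a limma p of 0.00312 and an adjusted p of 0.554. Leaving out each library in turn gave -1.41 to -0.90. Its ACSS2-HKO mean lies under the filter of 1 FPKM, so the gene was tested by virtue of its ACSS2-flox values. Ugt2b38, its closest neighbour in promoter sequence, read 0.403, 1.12 and 1.34 FPKM in ACSS2-HKO, against 0.313, 0.823 and 2.85 FPKM in ACSS2-flox. Its groups overlapped (-0.14 ± 0.38). Ugt2b37 shares 6.4% and Ugt2b38 28.0% of their 75-base words with other genes, most often with the far more abundant Ugt2b5. How such fragments were split is uncertain, so these low counts may include fragments of Ugt2b5, which was not tested. The windows of these genes, the 250 bases before the start from RefSeq (GRCm38.p6), are shown because they are alike while the values are not. They are identical at 225 of 264 aligned columns (85.2%), the highest share among the pairs of members compared, and capitals mark the 25 bases in each that do not face an identical base.

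Ugt2b37 promoter window, chr5:87254789-87255038, minus strand: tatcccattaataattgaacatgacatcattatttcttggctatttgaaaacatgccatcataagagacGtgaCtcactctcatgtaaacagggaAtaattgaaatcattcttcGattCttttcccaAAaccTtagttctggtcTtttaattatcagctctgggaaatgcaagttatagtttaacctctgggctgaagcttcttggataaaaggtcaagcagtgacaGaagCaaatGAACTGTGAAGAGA
Ugt2b38 promoter window, chr5:87424204-87424453, minus strand: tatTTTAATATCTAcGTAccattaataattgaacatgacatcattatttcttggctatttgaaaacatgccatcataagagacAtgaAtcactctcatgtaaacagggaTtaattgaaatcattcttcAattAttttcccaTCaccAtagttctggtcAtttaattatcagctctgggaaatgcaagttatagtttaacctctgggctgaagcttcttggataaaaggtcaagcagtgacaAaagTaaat

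The sequence TGAGTCA, the AP-1 core, was searched after the windows had been seen. It occurs in the Ugt2b37 window on the opposite strand, 180 bases before the start, and not in the Ugt2b38 window. Its letters are found in the windows of 5.16% of all genes, and in those of 5 of the 39 members that have one. Ugt3 enzymes use other sugars in human, UDP-N-acetylglucosamine for UGT3A1, and both Ugt3 genes lie side by side on chromosome 15 (9279822 to 9370955). Ugt3a1 read 11.5, 15.4 and 5.97 FPKM in ACSS2-HKO, against 16.5, 24.4 and 17.0 FPKM in ACSS2-flox. Its groups did not overlap (11.0 ± 4.74 and 19.3 ± 4.39 FPKM, SD, n = 3 each), and the fold change was -0.83 ± 0.32 with a limma p of 0.0298 and an adjusted p of 0.637. Leaving out ACSS2-HKO replicate 3, its lowest library, gave -0.48 which missed the unadjusted threshold, as did the value without ACSS2-flox replicate 2 (-0.66). Ugt3a2, the more abundant copy, read 168, 185 and 135 FPKM in ACSS2-HKO, against 171, 198 and 169 FPKM in ACSS2-flox, with overlapping groups (-0.15 ± 0.19).

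**Figure D3:**
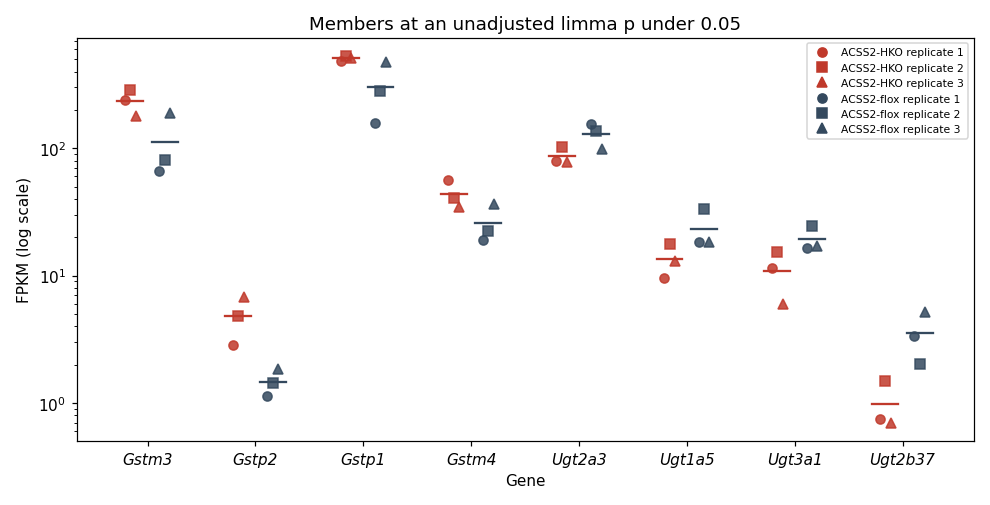
FPKM on a log scale is plotted for each of the 6 libraries and for the 8 members at an unadjusted limma p under 0.05, with ACSS2-HKO at the left and ACSS2-flox at the right of each gene and short lines at the means. Gstp2, Gstp1, Ugt1a5, Ugt3a1 and Ugt2b37 show no overlap between the groups, while ACSS2-flox replicate 3 reaches into the ACSS2-HKO range for Gstm3, Gstm4 and Ugt2a3.

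The mu class GSTs form a cluster on chromosome 3 (107895854 to 108045179). Gstm1, the most abundant GST of the table, made up 81.0% to 87.2% of summed Gstm FPKM in ACSS2-HKO and 81.9% to 86.1% in ACSS2-flox. It read 3401, 2832 and 1720.1 FPKM in ACSS2-HKO, against 1565, 1207 and 2589 FPKM in ACSS2-flox. ACSS2-HKO replicate 3 and ACSS2-flox replicate 3 crossed, and the fold change of 0.59 ± 0.36 (limma adjusted p = 0.714) became 0.87 without ACSS2-HKO replicate 3 and ran from 0.34 (without ACSS2-flox replicate 2) to 0.89 (without ACSS2-flox replicate 3). Gstm3 (chromosome 3, 107963696 to 107969174) read 239.8, 288 and 181 FPKM in ACSS2-HKO, against 65.7, 81.3 and 191 FPKM in ACSS2-flox. Its mean was 2.10-fold higher (236 ± 53.8 and 113 ± 68.0 FPKM, SD, n = 3 each), although ACSS2-flox replicate 3 was above ACSS2-HKO replicate 3. Limma gave a fold change of 1.20 ± 0.38, a p of 0.0134 and an adjusted p of 0.637, with 0.89 to 1.65 over single libraries left out. Gstm3 shares 21.6% and the more abundant Gstm1 14.8% of their 75-base words with other genes, each other among them. How these fragments were split is uncertain, and its part in the Gstm3 values was not tested. Gstm4 (chromosome 3, 108030571 to 108045179) shares no 75-base word with another gene. It read 56.6, 40.4 and 34.5 FPKM in ACSS2-HKO, against 19.0, 22.4 and 36.8 FPKM in ACSS2-flox, with the same crossing of replicates 3. Its fold change was 0.76 ± 0.28 with a limma p of 0.027 and an adjusted p of 0.637, and it was 0.56 without ACSS2-flox replicate 1. The other 4 mu genes did not share this pattern of values. Gstm2 read 111, 133 and 93.5 FPKM in ACSS2-HKO, against 127, 75.4 and 90.0 FPKM in ACSS2-flox (0.23 ± 0.24). Gstm5, Gstm6 and Gstm7 had fold changes of 0.19, -0.18 and -0.05 and overlapping groups, at means of 15.2 to 50.6 FPKM.

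Pi class GSTs, which act on many electrophiles, lie close together on chromosome 19 (4035411 to 4059605). Gstp1 (4035411 to 4037912) read 483, 528 and 511 FPKM in ACSS2-HKO, against 157, 282 and 476 FPKM in ACSS2-flox. The groups did not overlap, and the ACSS2-HKO libraries lay close together while the ACSS2-flox libraries spread widely (507 ± 22.9 and 305 ± 161 FPKM, SD, n = 3 each). The fold change of 0.87 ± 0.36 had a limma p of 0.041 and an adjusted p of 0.649, and was 0.47 without ACSS2-flox replicate 1. Of the 6 ways to leave out 1 library, only leaving out ACSS2-flox replicate 3 kept Gstp1 past the unadjusted threshold. Gstp2 (4040288 to 4042221), a scarce neighbour, read 2.86, 4.81 and 6.84 FPKM in ACSS2-HKO, against 1.14, 1.43 and 1.84 FPKM in ACSS2-flox. Every ACSS2-HKO value was above every ACSS2-flox value, and the mean was 3.29-fold higher (4.84 ± 1.99 and 1.47 ± 0.35 FPKM, SD, n = 3 each). Its fold change was 1.19 ± 0.27, with the smallest limma p of all members (0.00198, adjusted p = 0.554). It rested on 76, 130 and 203 fragments in ACSS2-HKO, against 29, 40 and 53 in ACSS2-flox. Gstp2 shares 68.2% and Gstp1 57.7% of their 75-base words with other genes, mostly each other, and how their fragments were split is uncertain. The ratio of Gstp1 to Gstp2 was 169, 110 and 74.7 in ACSS2-HKO, against 137, 198 and 259 in ACSS2-flox, with overlap between the groups. The part of shared fragments in the Gstp2 values was not tested. Gstp3, which shares no such word, had the opposite sign, with 27.7, 35.1 and 17.7 FPKM in ACSS2-HKO, against 51.3, 28.7 and 44.3 FPKM in ACSS2-flox (-0.62 ± 0.30, limma adjusted p = 0.668, groups overlapping), and was -0.19 without both libraries that stood apart. The Gstp1 and Gstp2 windows before the start are shown because these neighbours both read higher in ACSS2-HKO. They are identical at 208 of 265 aligned columns (78.5%), and capitals mark the 42 bases in each that do not face an identical base.

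Gstp1 promoter window, chr19:4037913-4038162, minus strand: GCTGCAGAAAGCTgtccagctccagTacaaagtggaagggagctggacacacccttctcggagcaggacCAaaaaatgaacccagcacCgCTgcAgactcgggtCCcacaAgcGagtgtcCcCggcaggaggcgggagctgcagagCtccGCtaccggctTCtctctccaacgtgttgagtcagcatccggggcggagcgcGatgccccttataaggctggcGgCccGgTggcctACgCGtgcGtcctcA
Gstp2 promoter window, chr19:4042222-4042471, minus strand: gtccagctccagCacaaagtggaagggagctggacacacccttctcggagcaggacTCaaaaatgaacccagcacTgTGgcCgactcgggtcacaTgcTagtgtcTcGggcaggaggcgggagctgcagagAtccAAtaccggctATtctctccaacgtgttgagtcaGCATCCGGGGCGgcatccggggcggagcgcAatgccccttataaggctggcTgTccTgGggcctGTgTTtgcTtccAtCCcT

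Both windows hold TGAGTCA on the gene's own strand, 74 bases before the start in Gstp1 and 89 bases before it in Gstp2. GCGTG, the core of the AHR-bound xenobiotic response element, occurs 13 bases before the start of Gstp1 and not in the Gstp2 window. Across the 39 members with a window it was found in 8 (20.5%), against 30.8% of all genes.

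**Figure D4:**
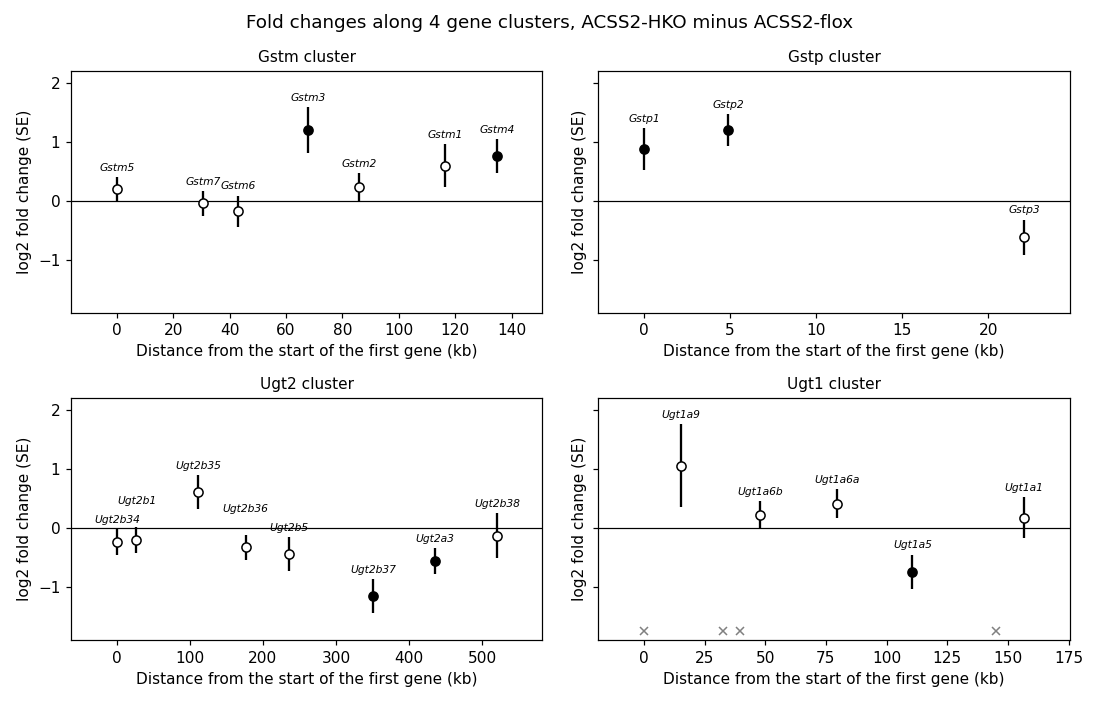
The log2 fold change with its standard error is plotted against the distance in kb from the start of the first gene of 4 clusters, with filled points for an unadjusted p under 0.05 and grey crosses at the bottom for genes below the filter. Neighbours differ in sign in each cluster, as for Gstp2 (1.19) and Gstp3 (-0.62), or Ugt2b35 (0.61) and Ugt2b36 (-0.33).

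Alpha class GSTs detoxify lipid aldehydes and toxin epoxides. Gsta3 (chromosome 1, 21240565 to 21265575), which protects mouse liver from aflatoxin, was the most abundant, with 806, 779 and 607 FPKM in ACSS2-HKO, against 1011, 906 and 889 FPKM in ACSS2-flox. The ACSS2-HKO values all lay below the ACSS2-flox values, a small difference (731 ± 108 and 935 ± 66.0 FPKM, SD, n = 3 each) at -0.36 ± 0.21 and a limma adjusted p of 0.69, and it was -0.18 without both libraries that stood apart. Gsta4, which conjugates the lipid aldehyde 4-hydroxynonenal, read 97.3, 114 and 53.3 FPKM in ACSS2-HKO, against 66.2, 59.9 and 116 FPKM in ACSS2-flox. Its groups overlapped, and its fold change of 0.12 ± 0.34 turned to -0.01 with median-ratio scaling. Gsta2 read 50.6, 53.9 and 26.1 FPKM in ACSS2-HKO, against 24.4, 36.3 and 59.5 FPKM in ACSS2-flox (0.14 ± 0.37, groups overlapping). Gsta1, named after its values were seen, shares 86.3% of its 75-base words with other genes and read 13.1, 24.5 and 7.33 FPKM in ACSS2-HKO, against 0.654, 8.24 and 10.3 FPKM in ACSS2-flox. The lowest of these, in ACSS2-flox replicate 1, rests on 19 fragments, and the groups overlapped (1.37 ± 0.70, limma adjusted p = 0.672). Without that library the fold change of Gsta1 was 0.49.

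Theta class GSTs, which handle small halogenated compounds, lie together on chromosome 10. Gstt1 (75783813 to 75798584) read 313, 291 and 191 FPKM in ACSS2-HKO, against 491, 315 and 358 FPKM in ACSS2-flox. Its groups did not overlap, though ACSS2-HKO replicate 1 and ACSS2-flox replicate 2 nearly met. Limma gave -0.56 ± 0.26 with an adjusted p of 0.665, and -0.15 without both libraries that stood apart. Gstt2 read 63.2, 40.3 and 38.4 FPKM in ACSS2-HKO, against 77.6, 48.1 and 58.1 FPKM in ACSS2-flox (-0.38 ± 0.26). Gstt3 read 92.7, 48.6 and 39.4 FPKM in ACSS2-HKO, against 69.1, 38.7 and 73.9 FPKM in ACSS2-flox (-0.05 ± 0.36). Both of these overlapped between the groups. Among the smaller classes, Gstz1, the maleylacetoacetate isomerase of tyrosine breakdown, read 198, 156 and 151 FPKM in ACSS2-HKO, against 227, 172 and 202 FPKM in ACSS2-flox (-0.25 ± 0.20). Gstk1, the kappa class enzyme of mitochondria and peroxisomes, read 98.0, 94.8 and 90.1 FPKM in ACSS2-HKO, against 122, 106 and 99.4 FPKM in ACSS2-flox. The kappa values did not overlap, but the means differed by a factor of only 1.16 and the limma adjusted p was 0.788. Gsto1, which reduces dehydroascorbate, read 109.7, 92.9 and 68.8 FPKM in ACSS2-HKO, against 121, 84.6 and 101 FPKM in ACSS2-flox (-0.19 ± 0.23, groups overlapping).

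Mgst1, a membrane enzyme that reduces lipid peroxides as well as conjugating glutathione, ranked with Gstm1 as the most abundant members. It read 2133, 2158 and 1565 FPKM in ACSS2-HKO, against 2654, 1984 and 1931 FPKM in ACSS2-flox. The groups overlapped (1952 ± 336 and 2189.8 ± 403 FPKM, SD, n = 3 each), with a fold change of -0.17 ± 0.25. Mgst3 read 86.4, 65.5 and 30.9 FPKM in ACSS2-HKO, against 64.3, 45.8 and 65.2 FPKM in ACSS2-flox (-0.04 ± 0.35). Neither sign held without both libraries that stood apart, where Mgst1 was 0.13 and Mgst3 0.45. The 6 members below the filter were Gsto2, Mgst2, Ugt1a10, Ugt1a7c, Ugt1a2 and Ugt1a8. None exceeded 0.338 FPKM or 37 fragments in any library, and the highest mean among them was 0.156 FPKM, against 1.14 FPKM for Ugt2b38, the lowest member tested.

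The antioxidant response element core TGACNNNGC, bound by NRF2 with small MAF proteins, was searched in the same windows on both strands. It occurs in 4 of the 39 members (10.3%), against 11.5% of all genes, and these are Gsta3, Gstm5, Gstm7 and Mgst1. Their fold changes were -0.36, 0.19, -0.05 and -0.17, so none of these 4 was among the members at an unadjusted p under 0.05. The pattern requires C after TGA, so it could not match TGAGTCAGC, which the Gstp1 and Gstp2 windows hold. Other forms of the element were not searched, so these counts do not show which members lack one. Gsta3 and Mgst1 are shown as the abundant members with a match, which is in capitals, 121 bases before the start of Gsta3 and, on the opposite strand, 56 bases before that of Mgst1. A match describes these letters and says nothing of binding.

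Gsta3 promoter window, chr1:21240335-21240584, plus strand: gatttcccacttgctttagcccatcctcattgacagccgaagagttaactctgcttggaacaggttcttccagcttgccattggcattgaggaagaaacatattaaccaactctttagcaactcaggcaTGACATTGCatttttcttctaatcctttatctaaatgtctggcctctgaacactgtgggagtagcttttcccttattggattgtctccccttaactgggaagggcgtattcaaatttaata
Mgst1 promoter window, chr6:138140277-138140526, plus strand: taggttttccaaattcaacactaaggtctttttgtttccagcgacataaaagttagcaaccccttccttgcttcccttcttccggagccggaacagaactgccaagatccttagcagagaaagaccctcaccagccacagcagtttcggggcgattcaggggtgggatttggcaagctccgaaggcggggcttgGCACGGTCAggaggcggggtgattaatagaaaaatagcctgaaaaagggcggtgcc

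Genes that supply, export or regulate the same pathways were counted by list, with 0 of them past the adjusted threshold. Medians are read beside the 0.10 of all tested genes. Counts at the unadjusted threshold are read beside 6.09% of all genes higher and 1.5% lower. Groups without overlap are read beside 12.5% of all genes higher and 2.94% lower. The list for UDP-glucuronate supply and glucuronide turnover had a median of 0.11, and 1 of 8 tested genes passed the unadjusted threshold. That gene, the glucuronidase Gusb, which splits glucuronides, read 4.46, 4.55 and 6.46 FPKM in ACSS2-HKO, against 1.45, 3.76 and 3.61 FPKM in ACSS2-flox (0.69 ± 0.28). Without either library that stood apart, 0 of the 8 passed. Glutathione synthesis and recycling had a median of 0.05 with 0 of 13 past the unadjusted threshold. In the mercapturate pathway, which trims glutathione conjugates for excretion, the median was -0.13 and 1 of 7 was higher and 1 lower. Ggt6, a gamma-glutamyltransferase relative, read 12.4, 7.64 and 8.01 FPKM in ACSS2-HKO, against 5.29, 2.96 and 6.34 FPKM in ACSS2-flox. Nat8f1, an acetyltransferase relative, read 26.1, 49.8 and 22.3 FPKM in ACSS2-HKO, against 100.1, 51.9 and 50.4 FPKM in ACSS2-flox. Neither overlapped between the groups, and 0 genes were lower at that threshold without either library that stood apart. Of 6 tested conjugate exporters, 2 were higher at that threshold. Abcc3, which exports glucuronides to blood, read 60.3, 33.9 and 43.9 FPKM in ACSS2-HKO, against 18.5, 31.5 and 29.2 FPKM in ACSS2-flox, without overlap (0.78 ± 0.27). Abcc4 read 4.02, 2.47 and 4.15 FPKM in ACSS2-HKO, against 0.382, 3.21 and 1.53 FPKM in ACSS2-flox (0.87 ± 0.38), with overlap. The lowest value of both exporters was in ACSS2-flox replicate 1, and without it 0 of the 6 passed the unadjusted threshold and the median was -0.04, against 0.22 with it.

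Against 6.09% and 1.5% of all genes, 0 of 17 tested regulators were higher and 1 was lower at an unadjusted p under 0.05. It was Nr1i3, which encodes CAR, with 44.0, 36.5 and 33.7 FPKM in ACSS2-HKO, against 72.8, 52.7 and 43.5 FPKM in ACSS2-flox (-0.53 ± 0.22). Its limma p was 0.0448 and its adjusted p 0.649. One ACSS2-HKO library, replicate 1, lay just above ACSS2-flox replicate 3. Without ACSS2-HKO replicate 3, 0 regulators passed that threshold. Without ACSS2-flox replicate 1, 1 was higher and 2 were lower, against 5.11% and 4.69% of all genes. With both of these libraries out, 1 was higher and 3 were lower, against 5.37% and 3.78%. Median-ratio scaling gave 0 higher and 4 lower, against 3.78% and 3.08%. The CAR and PXR targets outside the family had a median of -0.26, with 1 of 9 lower, against 1.5% of all genes. It was the carboxylesterase Ces2a (-0.64 ± 0.20). Of these 9 targets 2 had a positive fold change, and 0 had one without ACSS2-flox replicate 1, where the median was -0.405. NRF2 targets outside the family had a median of 0.42, with 15 of 16 positive, against 66% of all tested genes. At the unadjusted threshold 4 were higher (Cbr3, Nqo1, Abcc3 and Srxn1), against 6.09% of all genes. Each of these 4 was lowest in ACSS2-flox replicate 1, as were 52.9% of all tested genes. Without that library the median was 0.17, with 13 of 16 positive and 3 higher at the unadjusted threshold, and without both libraries that stood apart 0.16, with 12 positive, 3 higher and 1 lower. Nqo1, the quinone reductase, read 14.0, 11.6 and 12.1 FPKM in ACSS2-HKO, against 6.06, 8.04 and 7.04 FPKM in ACSS2-flox. Cbr3, a carbonyl reductase, had 2.62, 2.15 and 5.62 FPKM in ACSS2-HKO, against 0.280, 0.345 and 0.604 FPKM in ACSS2-flox. Among the members, 10 of 20 Gst, 5 of 15 Ugt and 0 of 2 Mgst genes had a positive fold change. Which members respond to NRF2 in these livers was not tested. AHR targets had a median of -0.18 over 3 tested genes, with Nqo1 the only one past the unadjusted threshold. Acute phase genes, made by hepatocytes in inflammation, had a median of 1.35, with 14 of 18 higher at that threshold, against 6.09% of all genes. Their summed level was 15426, 18778 and 55032 FPKM in ACSS2-HKO, against 12117, 10750.0 and 9950 FPKM in ACSS2-flox. The median was 0.79 without ACSS2-HKO replicate 3, with 12 of 18 higher, against 2.87% of all genes. These lists and the genes named from them were set with earlier results of these data known.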

How the data were processed

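RNA-seq values of 6 whole-liver libraries were analysed, 3 ACSS2-HKO and 3 ACSS2-flox, grouped by the genotype label. Per the labels' protocols, library preparation used the VAHTS V6 kit for RNA-seq. The deposited table gives 1 FPKM value per gene and library, computed by the authors, and the submitters' processing notes name mm10 and DESeq2 without a role. Which aligner, counter and annotation were used is not given in the sources used here. FPKM is a share of a library, so abundant genes lower the others.

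FPKM values were turned back into whole fragments within 0.02 of a whole number for 16134 of 16135 genes (99.99%), and 99.2% to 99.4% of each implied total lay in the table. Fragments served for depth and for limma voom. Genes averaging 1 FPKM or more were tested on log2(FPKM + 1), pseudocount 1, with limma 3.58.1 (R 4.3.3, trended eBayes, two-sided, Benjamini-Hochberg over 9818 genes, threshold 0.05). The exact permutation test used all 20 arrangements of 6 libraries. The step was tested on simulated data. Medians over lists carry no test. Values per library are given for members at an unadjusted p under 0.05, for the 3 most abundant of each subfamily, and for members whose groups did not overlap with a fold change of 0.5 or more, and up to 3 genes of smallest p were eligible from each list. Promoter windows and positions are RefSeq GRCm38.p6, and 75-base words were compared between GENCODE M21 transcripts. Members, lists and tests were chosen with earlier results of these data known. Alternatives were other pseudocounts, filters and scalings, the replicate number as a block, an untrended fit and each library left out.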

Additional observations from a re-analysis of the deposited data

How the results depend on the processing

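With 28 named members and 18 alternatives, 481 of 502 fold changes kept their sign, 21 members kept it throughout, and none passed the adjusted threshold. Voom and a loess correction for gene length (span 0.5) were chosen after seeing the data. With single libraries left out, genes past the adjusted threshold numbered 0 to 3 (3 without ACSS2-HKO replicate 2), genes at an unadjusted p under 0.05 356 to 962 (745 with all), and members at that threshold 4 to 10 (8 with all). Genes at an unadjusted p under 0.05 numbered 1129 without a filter and 430 at a filter of 5 FPKM, where the number of genes tested differs. The share of these that were higher was 80.3% as deposited, 56% after scaling by trimmed means of M-values, 55.1% by median ratios, 53.6% with voom, 52% after the length correction and 52.2% without ACSS2-flox replicate 1. The medians ran from -0.31 to -0.13 for Ugt, -0.14 to 0.17 for Gst and -0.29 to 0.18 for Mgst with single libraries left out. With both distant libraries out the Mgst median was 0.293. Signs turned for Gsta4 (-0.009 by median ratios, -0.006 with voom, -0.005 by trimmed means of M-values), for Mgst3 with TPM (0.001), and without both distant libraries for Gsto1 (0.126), Gstt3 (0.321), Mgst1 (0.132) and Mgst3 (0.453). With single libraries left out the range crossed 0 for Gsta4 (-0.10 to 0.445), Gsta2 (-0.16 to 0.467), Gstt3 (-0.405 to 0.201), Mgst3 (-0.35 to 0.377) and Ugt1a1 (-0.19 to 0.409). The cause was not tested. Same-numbered libraries did not deviate together (r = 0.013, 0.003 and -0.063 across 9818 genes, which are not independent), so the numbers were not taken as pairs. With the replicate block 4 genes, none of them a member, passed the adjusted threshold and 11 members the unadjusted one. Depth limits Ugt2b37, Ugt2b38, Gstp2 and the members below the filter, which rest on few fragments.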

Other observations

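Gstp-ps, a pseudogene that is no member and shares sequence with Gstp1 and Gstp2, read 15.8, 18.7 and 15.3 FPKM in ACSS2-HKO, against 6.79, 8.25 and 12.7 FPKM in ACSS2-flox. The groups did not overlap, as for the Gstp1 and Gstp2 genes. The Ugt1a9 to Ugt1a5 ratio, chosen after the values were seen, was 4.16, 2.85 and 3.30 in ACSS2-HKO, against 0.242, 1.29 and 2.26 in ACSS2-flox, with no overlap. Ugt1a2 held 0 fragments in 5 of 6 libraries although its transcript shares 63.3% of its 75-base words with other genes, so fragments in the shared Ugt1 exons were not counted in full for every gene of the locus.

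Genes known to be higher in female than in male mouse liver had a median log2 fold change of -0.45, with 9 of 10 negative. Among all tested genes 66% had a positive fold change. The summed level of the list was 2010.5 to 3042 FPKM in ACSS2-HKO, against 2922 to 3449.8 FPKM in ACSS2-flox. Hao2, a gene of this list, read 6.41, 8.40 and 0.953 FPKM in ACSS2-HKO, against 12.1, 18.8 and 16.1 FPKM in ACSS2-flox, lowest in ACSS2-HKO replicate 3. Without that library the median of the list was -0.36, with 8 of 10 negative. The labels give no sex, and the Y-linked genes Ddx3y, Uty, Kdm5d and Eif2s3y held 0 to 3 fragments in every library of both groups. Genes known to be higher in males had a median of 0.13 over 6 tested.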
